A study of Rattus norvegicus with 33 samples.

Results

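The 34 genes described here are the folding and unfolded protein response genes of the endoplasmic reticulum (ER). They were chosen by name, as the spots whose gene name in the scanner files equals 1 of 34 symbols, out of 23158 genes tested. All 34 were on the array, each gene's brightest probe was well above background on all 33 arrays, and none was saturated. They comprise 11 folding chaperones and cochaperones, 4 protein disulfide isomerases, 5 components of translocation and signal peptide cleavage, 4 genes of sensing (the sensors Ern1, Atf6 and Eif2ak3, and Xbp1), 3 genes of the Atf4 arm and 7 genes of ER-associated degradation (ERAD).

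RNA came from prostates of male Sprague-Dawley rats, 1 single-colour Agilent array per sample. Pups received estradiol benzoate (EB), a slowly released ester of estradiol, by subcutaneous injection of 2.5 mg/kg, or vehicle, on postnatal days (PND) 1, 3 and 5. At PND 90 animals of both kinds received 3 silastic implants, either 2 with testosterone and 1 with estradiol (T+E) or 3 empty ones. Tissue was taken at PND 30, 100 and 145. At PND 30 there were 4 vehicle controls and 4 EB rats, none with an implant. At PND 100 there were 3 rats each of control (vehicle, empty implants), EB (EB, empty implants), T+E (vehicle, hormone implants) and EB+T+E (EB, hormone implants). PND 145 had the same kinds of rat, 4 for EB and 3 for each other kind. Sample labels speak of the whole organ and the series title of its dorsolateral lobes, a point the files do not settle. The labels give 3 to 4 litters per group, so the tests rest on the spread among the rats sampled.

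Proteins made for secretion enter the ER through the Sec61 channel, lose their signal peptide to the signal peptidase complex, and fold with the help of chaperones and disulfide isomerases. When unfolded protein accumulates, the membrane sensors Ern1 (IRE1), Atf6 and Eif2ak3 (PERK) start the unfolded protein response: IRE1 splices Xbp1 mRNA, cleaved Atf6 and spliced Xbp1 raise chaperone and ERAD genes, and PERK slows translation while favouring that of Atf4, which in turn can raise Ddit3 (CHOP) and Trib3. Prostate luminal cells secrete much protein under androgen control, and plasma cells, which secrete antibody, are also rich in this machinery.

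Promoters of ER chaperone genes are known for the ER stress response element (ERSE), a pair of short boxes which binds NF-Y and Atf6. RefSeq promoters of build GRCr8, from 250 bases before to 50 after the start, were found for 27 of the 34 members, and not for Pdia3, Pdia6, Manf, Ern1, Atf6, Derl1 and Sec61a1. This motif, CCAAT followed after any 9 bases by CCACG and searched on both strands, lay in 8 of the 27 members and in 22 of 33469 promoters (0.0657%). Its 9 copies are shown here in the direction of the motif, 5′ to 3′, with the fixed bases in capitals, because they are the known element found in these 8 members.
Hspa5: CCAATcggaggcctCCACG
Hsp90b1 (distal): CCAATcgaaaggagCCACG
Hsp90b1 (proximal): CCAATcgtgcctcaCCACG
Creld2: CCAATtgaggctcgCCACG
Canx: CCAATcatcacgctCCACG
Dnajc3: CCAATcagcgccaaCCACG
Calr: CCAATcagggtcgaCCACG
Derl3: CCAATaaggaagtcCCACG
Xbp1: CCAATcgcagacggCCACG
The copy of Hspa5 began 43 bases before the start, that of Xbp1 65 bases, and that of Derl3 154 bases. The related motif ERSE-II, ATTGG followed after any 1 base by CCACG, again on both strands, lay in Dnajb11, Herpud1 and Hyou1, 3 of 27 members, and in 17 of 33469 promoters (0.0508%).
Dnajb11: ATTGGcCCACG
Herpud1: ATTGGgCCACG
Hyou1 (distal): ATTGGcCCACG
Hyou1 (proximal): ATTGGgCCACG
Hyou1 also held TGACGTGG, a core of the unfolded protein response element, which overlaps its distal ERSE-II and lay in 199 of 33469 promoters (0.595%). Herpud1 also held TTGCATCA, a form of the composite element bound by Atf4, which lay in 266 of 33469 promoters (0.795%). These are matches of letters in 1 window and were not tested for binding.

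The promoters of Hspa5 (chr3:38452766-38453065, plus strand), Atf4 (chr7:113684431-113684730, plus strand) and Spcs2 (chr1:163595220-163595519, minus strand) are shown whole, 5′ to 3′, since Hspa5 is the central chaperone and Atf4 and Spcs2 were among the members called in the largest number of comparisons. Capitals mark the ERSE of Hspa5. None of the searched motifs was found in the windows of Atf4 and Spcs2.
Hspa5: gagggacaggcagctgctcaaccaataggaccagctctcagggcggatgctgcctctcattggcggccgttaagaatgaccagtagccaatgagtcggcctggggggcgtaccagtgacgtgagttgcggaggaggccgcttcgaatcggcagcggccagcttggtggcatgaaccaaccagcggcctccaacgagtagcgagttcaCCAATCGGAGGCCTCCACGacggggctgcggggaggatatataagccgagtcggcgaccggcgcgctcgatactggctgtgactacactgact
Atf4: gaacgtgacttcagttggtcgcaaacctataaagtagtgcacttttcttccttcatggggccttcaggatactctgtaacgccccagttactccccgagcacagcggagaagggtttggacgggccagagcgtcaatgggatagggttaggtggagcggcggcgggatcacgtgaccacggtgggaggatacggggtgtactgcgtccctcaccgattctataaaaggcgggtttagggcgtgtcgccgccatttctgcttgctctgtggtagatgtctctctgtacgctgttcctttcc
Spcs2: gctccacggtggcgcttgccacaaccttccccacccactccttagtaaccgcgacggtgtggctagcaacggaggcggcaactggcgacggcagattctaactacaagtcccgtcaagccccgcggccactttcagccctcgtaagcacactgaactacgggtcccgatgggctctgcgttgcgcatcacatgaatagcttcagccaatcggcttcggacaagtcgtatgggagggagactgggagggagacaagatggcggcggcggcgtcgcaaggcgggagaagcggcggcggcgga

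Values are log2 of the processed spot signal minus log2 of the 75th percentile of that array, so a value of 0 equals that percentile, and a difference of 1 is a doubling of signal. Differences between groups are log2 ratios with the standard error (SE) of a limma fit over all 23158 genes, and a gene is called at an adjusted p under 0.05. Across arrays 61.5% to 68.9% of the spots were well above background, and arrays of 1 group correlated at 0.864 to 0.986. The scaling leaves the median ratio of all genes below 0 in the last EB+T+E group (-0.24 to control, -0.16 to T+E), and it stands beside the median ratios of the 34 genes. Luminal epithelium markers (Krt8, Krt18, Epcam and others) were well above background for 15 of 15 genes on all control and EB+T+E arrays of PND 145. Control replicate 3 of PND 100 and control replicate 2 of PND 145 stood apart, with mean seminal vesicle product levels of 2.65 and 2.87 against -2.51 to -0.69 on the other adult control arrays, and the second also had a spermatid transcript mean of 2.43. Counts without both are given where they differ by more than 1.5 times. In whole tissue, fewer cells of a type and less RNA per cell cannot be told apart.

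Levels of the 34 genes were lowest, as a group, in EB+T+E at PND 145. The median over the 34 genes was 2.88, 2.48 and 2.73 on the control arrays of PND 145, 2.66, 1.87, 2.42 and 2.02 after EB, 2.46, 2.24 and 2.76 after T+E and 1.38, 1.59 and 1.82 after EB+T+E. At PND 100 the median was 3.00, 2.38 and 2.39 in controls, 2.65, 1.61 and 1.09 in EB, 2.66, 2.65 and 3.35 in T+E and 1.29, 2.12 and 3.35 in EB+T+E. At PND 30 it was 2.12, 2.31, 2.39 and 2.52 in controls and 2.03, 1.28, 1.32 and 2.19 in EB. Single arrays of other groups had lower medians than any EB+T+E array of PND 145. These were 1.28 and 1.32 in EB at PND 30, 1.09 in EB at PND 100 and 1.29 in EB+T+E at PND 100. The 3 EB+T+E arrays of PND 145 lay below every control and T+E array of that age, while at PND 100 the EB arrays were spread from the control range to well below it, and the EB+T+E arrays from well below the controls to above every control. Each median runs over the same 34 genes and carries no test of its own.

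**Figure D1:**
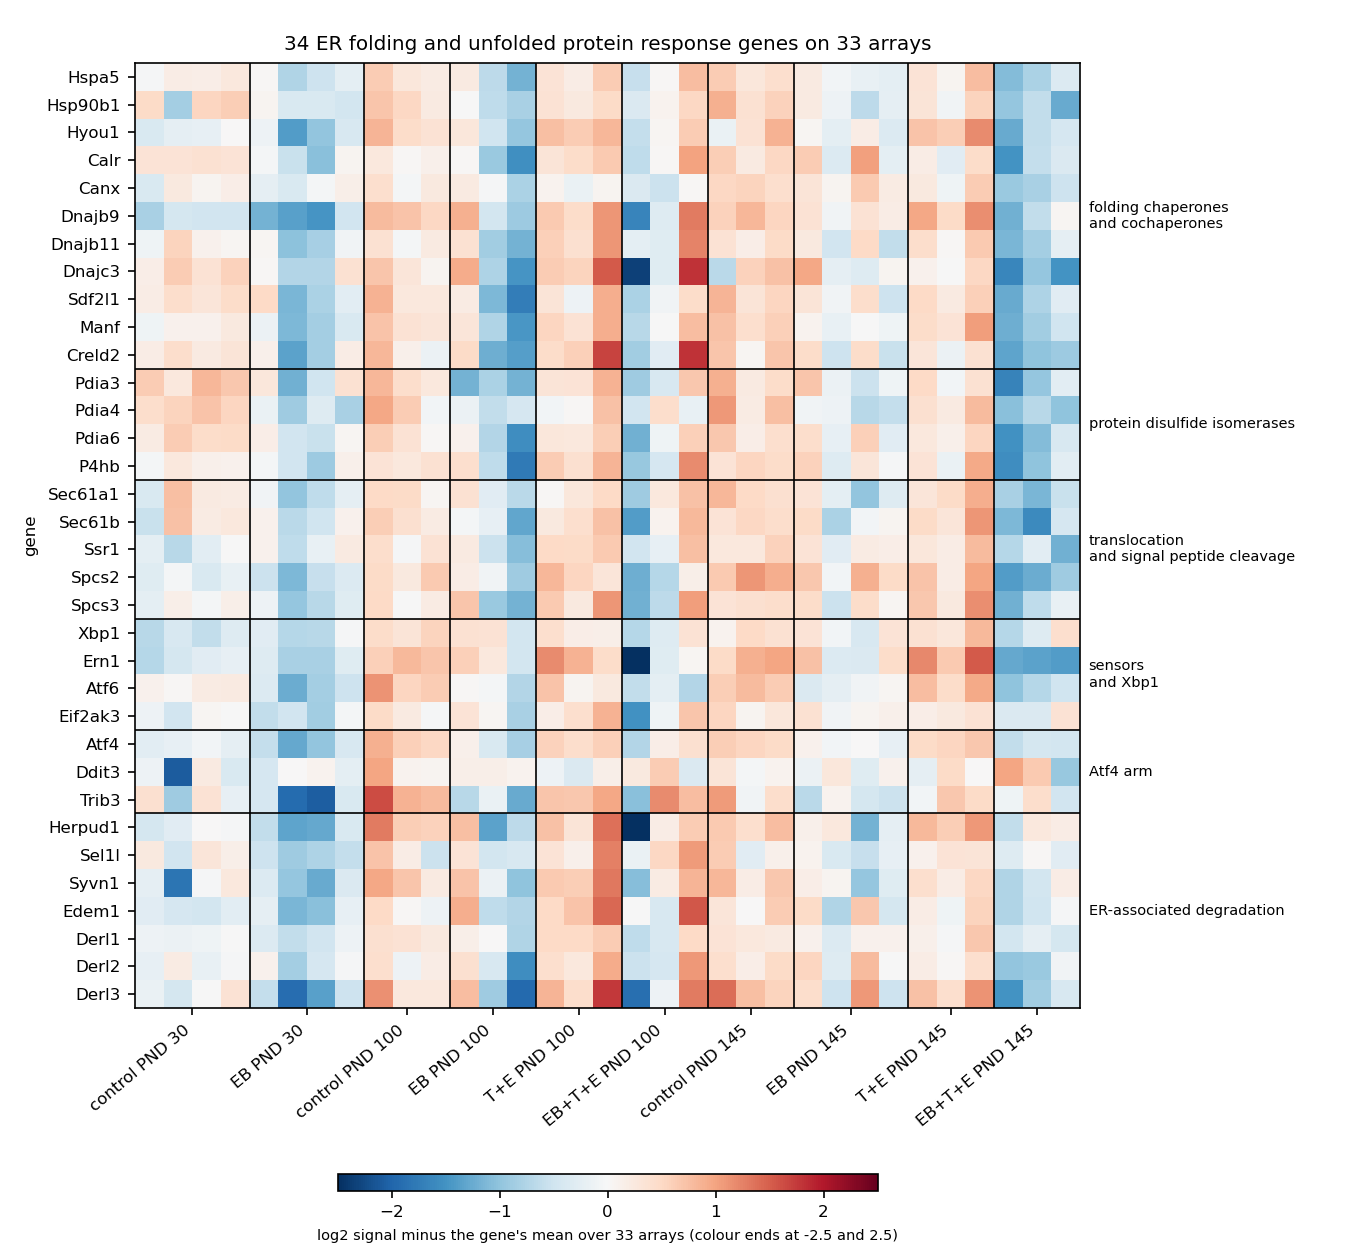
Signal of each of the 34 members (rows, by role) on each of the 33 arrays (columns, by group), as log2 signal minus the gene's mean over all arrays, with red above and blue below that mean. Columns of EB+T+E at PND 145 are mostly blue for chaperones, isomerases and translocation genes, and single arrays of EB at PND 30 and 100 and of EB+T+E at PND 100 are blue across most rows.

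After neonatal EB followed by T+E, 23 of the 34 genes were lower than in controls at PND 145 and 0 were higher, at 20.6% of all genes called lower and 14.7% called higher. The median log2 ratio of the 34 genes was -1.24, beside -0.24 for all genes. The decrease took in 10 of 11 chaperones, 4 of 4 disulfide isomerases and 4 of 5 translocation genes, 2 of 4 sensing genes, 1 of 3 genes of the Atf4 arm and 2 of 7 ERAD genes. The counts of the Atf4 arm and of ERAD, in lists of few genes, were near the share of all genes. Without EB+T+E replicate 1 the count was 13, the lowest of the 6 counts with 1 array left out. Within the 2 slides that held an array of each group, the median of the 34 genes was -1.05 (slide 3, beside -0.31 for all genes) and -0.87 (slide 4, beside -0.05), and 15 of 15 chaperones and isomerases were below 0 on each. Each slide compares 1 array with 1, and the control array of slide 3 was control replicate 2, which stood apart.

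**Figure D2:**
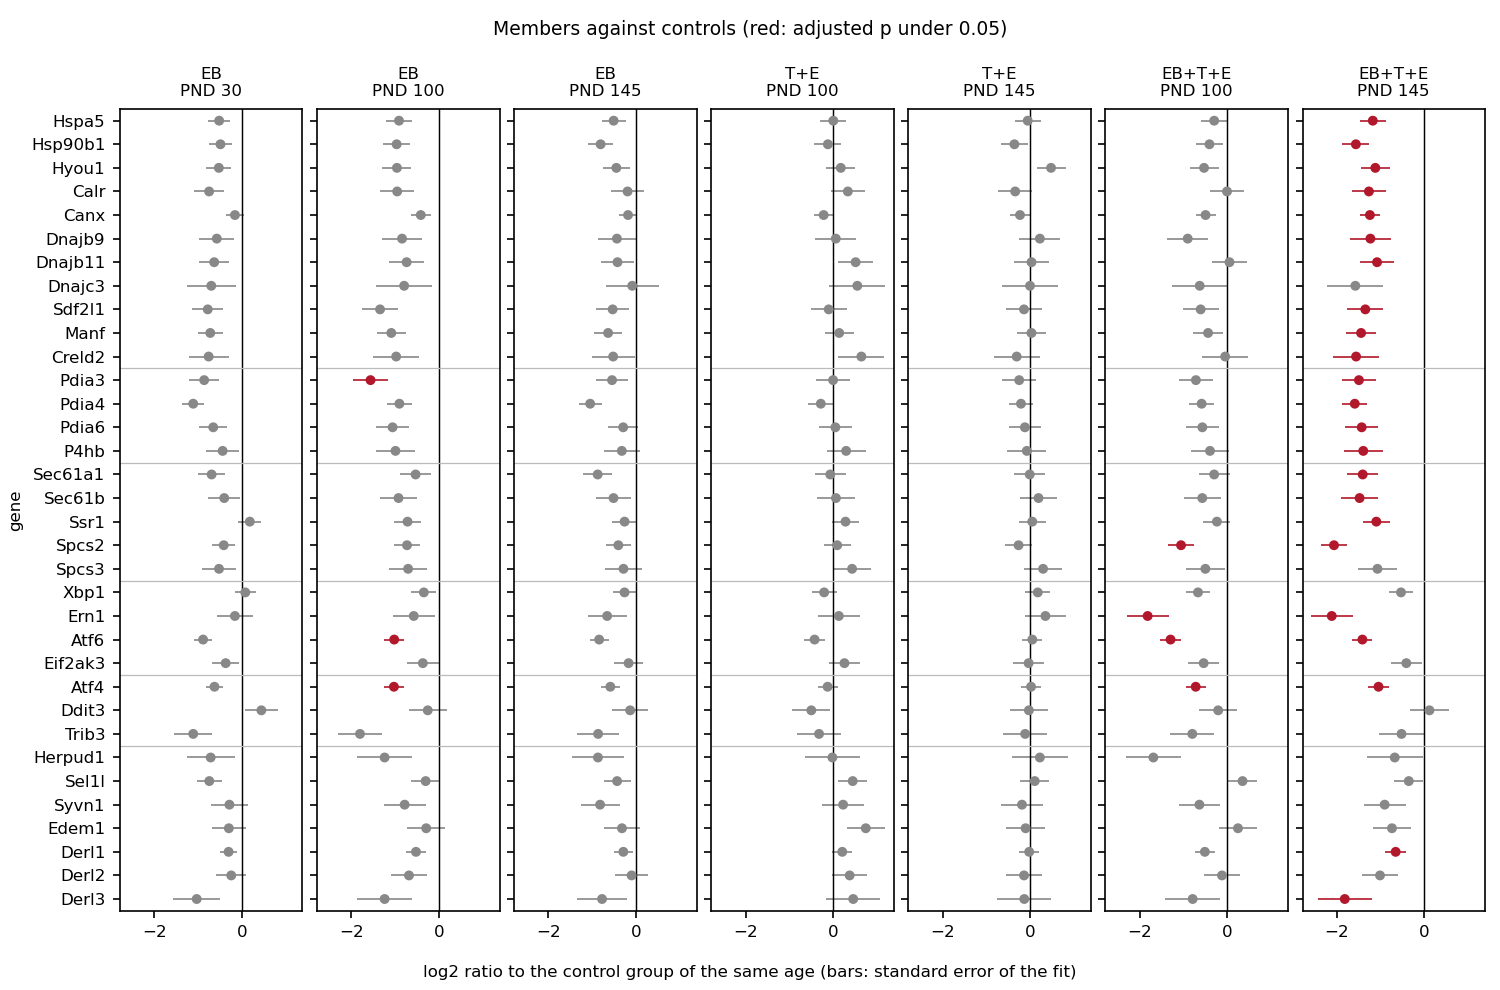
Log2 ratio of each member to the control group of the same age, with the SE of the fit as bars, in the 7 comparisons with controls. Red points are called at an adjusted p under 0.05, and 23 of 34 are red for EB+T+E at PND 145 against 0 for EB at PND 30, EB at PND 145 and T+E at either age.

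Hspa5 encodes BiP, the abundant ER Hsp70 that also holds the sensors inactive. Hspa5 stood at 4.91, 5.11, 5.09 and 5.19 in the PND 30 controls and at 4.95, 4.18, 4.41 and 4.68 after EB. Hspa5 at PND 100 read 5.56, 5.21 and 5.14 in controls, 5.15, 4.28 and 3.74 in EB, 5.26, 5.12 and 5.55 in T+E and 4.35, 4.97 and 5.70 in EB+T+E. Hspa5 at PND 145 read 5.56, 5.21 and 5.35 in controls, 5.15, 4.86, 4.74 and 4.69 in EB, 5.27, 4.99 and 5.69 in T+E and 3.84, 4.14 and 4.59 in EB+T+E. The EB+T+E arrays of PND 145 lay below all control arrays of that age, a 2.26-fold decrease (log2 ratio -1.18 ± 0.29 SE, adjusted p = 0.00353). The 4 EB arrays of PND 145 also lay below the controls, by a smaller ratio that was not called (-0.51 ± 0.28, adjusted p = 0.386). In EB at PND 30 and 100 and in EB+T+E at PND 100 the arrays overlapped the controls.

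The other large chaperones fell as well. Hsp90b1 (Grp94, the ER Hsp90) read 4.33, 3.81 and 4.01 in controls and 2.46, 2.82 and 2.18 in EB+T+E at PND 145, a log2 ratio of -1.56 ± 0.31 (adjusted p = 0.000418). Hyou1 (Grp170, the exchange factor of BiP) read 3.64, 4.18 and 4.67 in controls and 2.54, 3.19 and 3.39 in EB+T+E, a log2 ratio of -1.12 ± 0.33 (adjusted p = 0.0111). The lectin chaperones, which hold glycoproteins, fell by similar amounts, from 2.85, 2.47 and 2.76 to 0.75, 1.65 and 1.88 for Calr (-1.27 ± 0.39) and from 4.05, 4.09 and 3.95 to 2.61, 2.73 and 3.02 for Canx (-1.24 ± 0.23). In all 4 genes the arrays of the groups did not overlap, in a comparison where 20.6% of all genes were called lower. The share of all genes without overlap was not computed.

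The cochaperones and small secreted ER proteins followed. Dnajb9, a J-domain partner of BiP, read 0.83, 1.08 and 0.78 in controls and -0.94, -0.37 and 0.31 in EB+T+E (log2 ratio -1.23 ± 0.47), and Dnajb11, another, read 2.13, 1.95 and 2.26 in controls and 0.64, 0.92 and 1.54 in EB+T+E (-1.08 ± 0.40). Sdf2l1, a component of the BiP chaperone cycle, read 4.62, 4.10 and 4.32 in controls and 2.51, 3.01 and 3.48 in EB+T+E (-1.35 ± 0.41). Dnajb9 kept the call in 8 and Dnajb11 in 9 of the 18 alternative settings, and both lost it when any 1 control array was left out, while Sdf2l1 kept it in 16. Manf, an ER stress-inducible factor that binds BiP, read 5.83, 5.53 and 5.71 in controls and 3.88, 4.24 and 4.61 in EB+T+E (-1.45 ± 0.33) and kept the call in all 18 settings. Creld2, another stress-inducible ER protein, read 2.90, 2.24 and 2.90 in controls and 0.88, 1.18 and 1.29 in EB+T+E (-1.56 ± 0.53) and kept it in 13. Dnajc3 (p58IPK, a cochaperone of BiP) had one of the largest ratios, -1.58 ± 0.64, on 1.03, 2.28 and 2.44 in controls and 0.07, 0.74 and 0.21 in EB+T+E, but its spread was wide and it was not called (adjusted p = 0.0571).

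All 4 disulfide isomerases, which form and shuffle disulfide bonds, fell at PND 145 in EB+T+E. Pdia3 (ERp57, the partner of Calr and Canx) read 2.68, 2.02 and 2.26 in controls and 0.12, 0.82 and 1.53 in EB+T+E, a log2 ratio of -1.49 ± 0.39 (adjusted p = 0.00498). Pdia4 read 1.41, 0.53 and 1.08 in controls and -0.70, -0.36 and -0.68 in EB+T+E (-1.59 ± 0.28, adjusted p = 0.000158), and Pdia6 read 5.93, 5.42 and 5.68 in controls and 3.73, 4.16 and 4.84 in EB+T+E (-1.43 ± 0.37, adjusted p = 0.00455). P4hb, the classical isomerase PDI, read 4.39, 4.58 and 4.51 in controls and 2.48, 3.03 and 3.78 in EB+T+E (-1.40 ± 0.45, adjusted p = 0.0174). Replicate 1 of EB+T+E was the lowest array for Pdia3, Pdia6 and P4hb, and without it Pdia3 and P4hb were no longer called. P4hb also lost the call without EB+T+E replicate 2 or control replicate 2.

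Genes of protein entry fell too. Spcs2 stood at -0.83, -0.58, -0.91 and -0.72 in the PND 30 controls and at -1.06, -1.65, -1.11 and -0.86 after EB. Spcs2 at PND 100 read -0.04, -0.28 and 0.13 in controls, -0.34, -0.61 and -1.42 in EB, 0.30, 0.01 and -0.22 in T+E and -1.74, -1.24 and -0.38 in EB+T+E. Spcs2 at PND 145 read 0.13, 0.59 and 0.38 in controls, 0.14, -0.59, 0.36 and -0.05 in EB, 0.20, -0.35 and 0.46 in T+E and -1.91, -1.76 and -1.42 in EB+T+E. Spcs2, a subunit of the signal peptidase complex, had the second largest ratio of the 34, -2.06 ± 0.30 (a 4.18-fold decrease, adjusted p = 2e-05), and the call held in all 18 settings. The channel subunits Sec61a1 and Sec61b had log2 ratios of -1.41 ± 0.35 and -1.48 ± 0.43, on 4.94, 4.62 and 4.53 in controls and 3.32, 2.97 and 3.57 in EB+T+E for Sec61a1 and on 2.98, 3.17 and 3.08 in controls and 1.51, 1.05 and 2.22 in EB+T+E for Sec61b. Ssr1, a subunit of the translocon-associated TRAP complex, read 3.05, 3.05 and 3.37 in controls and 2.07, 2.53 and 1.58 in EB+T+E (-1.10 ± 0.31). Spcs3, the other signal peptidase subunit of the list, read 3.54, 3.58 and 3.62 in controls and 1.98, 2.54 and 3.01 in EB+T+E and was not called (-1.07 ± 0.44, adjusted p = 0.0599).

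Among the sensing genes, Ern1 and Atf6 fell, while Eif2ak3 and Xbp1 were not called. Ern1 stood at -0.62, -0.35, -0.19 and -0.11 in the PND 30 controls and at -0.24, -0.73, -0.72 and -0.21 after EB. Ern1 at PND 100 read 0.69, 0.90 and 0.79 in controls, 0.68, 0.35 and -0.37 in EB, 1.27, 0.96 and 0.55 in T+E and -3.00, -0.21 and 0.14 in EB+T+E. Ern1 at PND 145 read 0.56, 0.98 and 1.08 in controls, 0.83, -0.26, -0.27 and 0.56 in EB, 1.30, 0.75 and 1.62 in T+E and -1.19, -1.24 and -1.31 in EB+T+E. Ern1 had the largest ratio of all members at PND 145, -2.12 ± 0.48 in EB+T+E (a 4.34-fold decrease, adjusted p = 0.00153), on 3 arrays that lay close together and below all others of that age. A second Ern1 probe was well above background on 26 of the 33 arrays and is not used as support for this ratio. It is included in the count of further probes given later. The single lowest Ern1 value was on replicate 1 of EB+T+E at PND 100.

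Atf6 is the sensor that is itself cleaved into a transcription factor. Atf6 stood at 1.55, 1.48, 1.65 and 1.66 in the PND 30 controls and at 1.10, 0.20, 0.58 and 0.92 after EB. Atf6 at PND 100 read 2.57, 1.98 and 2.06 in controls, 1.46, 1.38 and 0.70 in EB, 1.78 ± 0.34 (mean and SD, n = 3) in T+E and 0.82, 1.20 and 0.71 in EB+T+E. Atf6 at PND 145 read 2.05, 2.24 and 2.07 in controls, 1.08, 1.22, 1.35 and 1.48 in EB, 2.22, 1.90 and 2.39 in T+E and 0.44, 0.73 and 0.94 in EB+T+E. Its EB+T+E arrays lay below the controls at both adult ages, with log2 ratios of -1.29 ± 0.23 at PND 100 (adjusted p = 0.00143) and -1.42 ± 0.23 at PND 145 (adjusted p = 5.9e-05). Further, dimmer Atf6 probes gave -0.62 and -1.28 in EB+T+E against control at PND 100. Its EB arrays also lay below the controls of the same age without overlap at all 3 ages, with ratios of -0.88 ± 0.20, -1.02 ± 0.23 and -0.84 ± 0.22. Of these 3 the ratio at PND 100 was called (adjusted p = 0.0263, against 0.0801 at PND 30 and 0.0703 at PND 145). The 3 comparisons of PND 145 with controls share the same control arrays, as do those of PND 100.

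Xbp1, the transcription factor made active by IRE1, was measured without telling its spliced from its unspliced form. Xbp1 stood at 1.30, 1.60, 1.39 and 1.68 in the PND 30 controls and at 1.72, 1.28, 1.32 and 1.98 after EB. Xbp1 at PND 100 read 2.45, 2.33 and 2.56 in controls, 2.39, 2.37 and 1.55 in EB, 2.43, 2.16 and 2.14 in T+E and 1.28, 1.68 and 2.37 in EB+T+E. Xbp1 at PND 145 read 2.10, 2.50 and 2.37 in controls, 2.35, 1.94, 1.61 and 2.35 in EB, 2.38, 2.29 and 2.82 in T+E and 1.28, 1.67 and 2.42 in EB+T+E. EB+T+E arrays of PND 145 overlapped the controls, and the log2 ratio of -0.53 ± 0.28 was not called (adjusted p = 0.144). Eif2ak3 (PERK) read -0.05, -0.52 and -0.30 in controls and -0.94, -0.93 and -0.22 in EB+T+E at PND 145, a log2 ratio of -0.41 ± 0.36 that was not called either, and its second, dimmer probe gave a ratio of 0.51, the 1 of 18 second probes that had the opposite sign in that comparison.

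In the Atf4 arm only Atf4 was called at PND 145. Atf4 stood at 3.67, 3.71, 3.87 and 3.69 in the PND 30 controls and at 3.34, 2.65, 2.94 and 3.52 after EB. Atf4 at PND 100 read 4.81, 4.51 and 4.44 in controls, 4.05, 3.55 and 3.09 in EB, 4.51, 4.36 and 4.52 in T+E and 3.19, 4.08 and 4.33 in EB+T+E. Atf4 at PND 145 read 4.54, 4.47 and 4.41 in controls, 4.03, 3.86, 3.94 and 3.73 in EB, 4.41, 4.47 and 4.61 in T+E and 3.32, 3.50 and 3.47 in EB+T+E. EB+T+E lay below the controls without overlap at both adult ages, with log2 ratios of -0.72 ± 0.23 at PND 100 (adjusted p = 0.0393) and -1.05 ± 0.23 at PND 145 (adjusted p = 0.00121). The call at PND 100 was kept in 8 of the 18 settings. It was lost without EB+T+E replicate 1 (-0.38), without any single control, with the authors' deposited table and with the replicate block. The spot measures Atf4 mRNA, whereas the pathway acts on its translation.

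Ddit3 encodes the proapoptotic factor CHOP. Ddit3 stood at 0.73, -1.22, 1.09 and 0.48 in the PND 30 controls and at 0.44, 0.87, 0.95 and 0.63 after EB. Ddit3 at PND 100 read 1.85, 0.94 and 0.93 in controls, 1.00, 1.01 and 0.95 in EB, 0.74, 0.49 and 1.00 in T+E and 1.10, 1.51 and 0.50 in EB+T+E. Ddit3 at PND 145 read 1.19, 0.81 and 0.94 in controls, 0.72, 1.15, 0.55 and 0.98 in EB, 0.63, 1.35 and 0.87 in T+E and 1.85, 1.52 and -0.08 in EB+T+E. Its group ranges overlapped in every comparison with controls, and its ratio in EB+T+E at PND 145 was 0.12 ± 0.44. Trib3, a pseudokinase induced by Atf4 and Ddit3, read -2.96, -4.11 and -3.58 in controls and -4.12, -3.59 and -4.50 in EB+T+E at PND 145 (-0.52 ± 0.51, not called), and its values after EB are given further on.

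**Figure D3:**
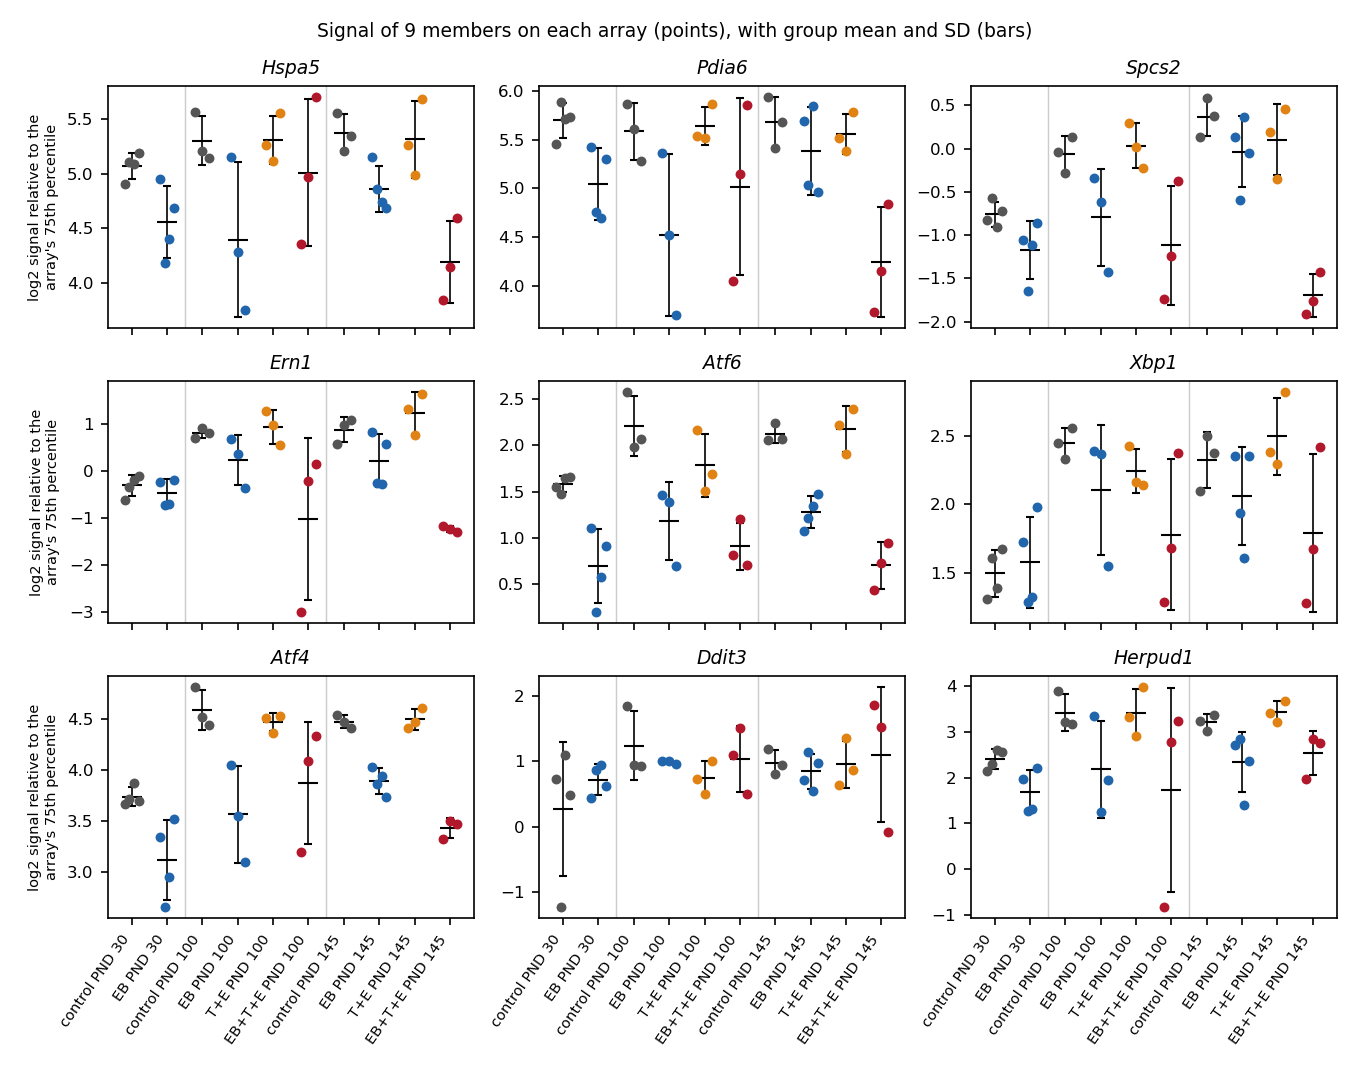
Log2 signal relative to the 75th percentile of the array for 9 members on every array, by group (grey control, blue EB, orange T+E, red EB+T+E), with the group mean and SD as black bars. Hspa5, Pdia6, Spcs2, Ern1, Atf6 and Atf4 are low on the 3 EB+T+E arrays of PND 145, while Ddit3 spans 1.85, 1.52 and -0.08 there.

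ERAD genes, which retrieve misfolded protein for the proteasome, held 2 calls among 7 genes. That count is near the 20.6% of all genes called lower in this comparison. Derl3 and Derl1, of the derlin family of the retrotranslocation channel, were lower, with log2 ratios of -1.82 ± 0.62 and -0.65 ± 0.23. Derl3 read 3.56, 2.91 and 2.71 in controls and 0.66, 1.29 and 1.77 in EB+T+E, and Derl1 read 2.29, 2.21 and 2.17 in controls and 1.48, 1.72 and 1.51 in EB+T+E. Derl3 kept its call in 13 and Derl1 in 9 of the 18 settings, and both lost it without control replicate 1, control replicate 2 or EB+T+E replicate 1. The others were below 0 without a call: Derl2 at -1.01 ± 0.40, Syvn1 (the ubiquitin ligase HRD1) at -0.91 ± 0.48, its partner Sel1l at -0.35 ± 0.33, and the mannosidase-like Edem1 at -0.74 ± 0.44.

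Herpud1, the HERP scaffold of the same ligase complex, is a sensitive target of ER stress and holds an ERSE-II in its promoter. Herpud1 stood at 2.15, 2.30, 2.60 and 2.56 in the PND 30 controls and at 1.98, 1.27, 1.32 and 2.21 after EB. Herpud1 at PND 100 read 3.88, 3.20 and 3.16 in controls, 3.33, 1.25 and 1.94 in EB, 3.33, 2.91 and 3.97 in T+E and -0.82, 2.78 and 3.23 in EB+T+E. Herpud1 at PND 145 read 3.23, 3.02 and 3.37 in controls, 2.72, 2.85, 1.41 and 2.37 in EB, 3.41, 3.21 and 3.67 in T+E and 1.98, 2.85 and 2.77 in EB+T+E. At PND 145 its EB+T+E arrays lay below the controls, but the ratio of -0.67 ± 0.64 was not called (adjusted p = 0.427). At PND 100 its ratio of -1.69 ± 0.64 rested on replicate 1, while the other 2 arrays lay near the controls, and it was not called (adjusted p = 0.0787).

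Set against T+E alone at PND 145, EB+T+E was lower in 20 of the 34 genes and higher in 0 (11.7% of all genes lower, 9.68% higher), with a median of -1.21 beside -0.16 for all genes. Called were 8 of 11 chaperones, 4 of 4 isomerases, 5 of 5 translocation genes, 2 of 4 sensing genes, Atf4 and 0 of 7 ERAD genes. Of the 7 ERAD genes limma gave 3 at an unadjusted p under 0.05, near the share of all genes at that level (34.7%). The log2 ratio was -2.47 ± 0.48 for Ern1, -1.80 ± 0.30 for Spcs2, -1.67 ± 0.43 for Sec61b and, for Hyou1, -1.60 ± 0.33. Without EB+T+E replicate 1, EB+T+E replicate 2 or T+E replicate 3 the counts were 12, 13 and 10.

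Set against EB alone at PND 145, EB+T+E was lower in 6 of the 34 genes (12.4% of all genes lower, 10.6% higher), and the median was -0.77 beside -0.22. The count of 6 was near the share of all genes called lower. The 6 were Calr (-1.07 ± 0.37), Canx (-1.06 ± 0.21), Pdia6 (-1.14 ± 0.35), Ern1 (-1.46 ± 0.45), Spcs2 (-1.66 ± 0.29) and Ssr1 (-0.84 ± 0.29). Canx and Spcs2 kept the call in all 18 settings, Pdia6 in 14, Ern1 in 13, Calr in 9 and Ssr1 in 5. Calr and Ssr1 lost it with quantile scaling, with no filter, with the authors' deposited table and with only the groups compared. With slide as a block Ern1 and Ssr1 lost it, and with the replicate block Calr and Ssr1 did, whereas the count was 2 without EB replicate 1 or EB+T+E replicate 1, 3 without EB+T+E replicate 2 and 12 without EB+T+E replicate 3. The interaction of EB and T+E at PND 145, which asks whether the combination differs from the sum of both, called 0 of 34 in either direction (0.635% of all genes higher, 0.134% lower), with 5 at an unadjusted limma p under 0.05 (13.5% of all genes) and a median of -0.70 beside -0.15. Spcs2 had -1.40 ± 0.42 (adjusted p = 0.106) and Ern1 -1.81 ± 0.66 (adjusted p = 0.193).

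The rest of the secretory pathway, taken from lists of genes outside the 34, fell alongside at PND 145 in EB+T+E against control. In this comparison 20.6% of all genes were called lower. Of 34 other translocation and N-glycosylation genes 29 were lower and 0 higher (median -1.19), among them the signal peptidase subunit Sec11a (-1.09 ± 0.16), Sec63 (-1.04 ± 0.22), Srp14 of the signal recognition particle (-0.93 ± 0.20) and the TRAP subunit Ssr2 (-1.35 ± 0.31). Of 35 ER to Golgi transport genes 27 were lower and 0 higher (median -1.15), among them the COPII GTPase Sar1a (-0.90 ± 0.15), the SNARE Sec22b (-1.75 ± 0.29) and the cargo receptors Tmed2 (-1.39 ± 0.25) and Tmed3 (-2.09 ± 0.41). Other ERAD components were lower in 14 of 25 and higher in 0 (median -0.84), with Stub1 (-0.75 ± 0.15), Ube2j2 (-0.72 ± 0.15), Selenos (-1.56 ± 0.33) and Ubxn4 (-1.22 ± 0.27).

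The remaining lists were mixed, in a comparison with 20.6% of all genes called lower and 14.7% higher. Their counts called higher were near or below that share. Other ER folding enzymes were lower in 19 of 36 and higher in 4 (median -0.93): Mesd (-2.18 ± 0.35), Cnpy2 (-0.90 ± 0.21) and Sil1 (-1.37 ± 0.33) fell, and the calcium-binding protein Rcn1 rose (2.01 ± 0.48). Other Atf4 targets and genes of the integrated stress response were lower in 20 of 40 and higher in 3 (median -0.78): the tRNA synthetases Mars1 (-0.96 ± 0.20) and Tars1 (-0.79 ± 0.17) and the lipoprotein receptor Vldlr (-2.38 ± 0.50) fell, while the interferon-induced kinase Eif2ak2 rose (1.88 ± 0.32). Other ER stress transcription factors and proteases were lower in 6 of 17 and higher in 3 (median -0.64), with Atf6b (-1.33 ± 0.34) and Map3k5 (-1.82 ± 0.36) lower and the protease Casp12 (3.03 ± 0.52) and the proapoptotic Bcl2l11 (1.53 ± 0.32) higher.

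Cell type markers also changed in this comparison, where 20.6% of all genes were called lower and 14.7% higher. Of 15 luminal epithelium markers 7 were lower and 1 higher, with Foxa1 (-1.55 ± 0.45) and Cldn3 (-1.68 ± 0.59) among the lower. Their mean level was 2.53, 2.41 and 2.41 in controls and 0.80, 1.58 and 2.12 in EB+T+E. Of 19 plasma cell and B cell markers 18 were higher and 0 lower (median 5.67), and their mean level was -6.99, -6.99 and -7.10 in controls and -0.84, -0.99 and -2.84 in EB+T+E. In controls 10 of the 19 were not well above background on any array, and in EB+T+E all 19 were on every array. Macrophage markers were higher in 13 of 14, T cell markers in 13 of 14 and fibroblast and matrix markers in 14 of 14, with mean fibroblast levels of -1.32, -1.62 and -1.40 in controls and 1.17, 0.83 and 0.36 in EB+T+E. Against T+E at the same age 17 of the 19 plasma cell and B cell markers were higher and 3 of 15 luminal markers lower (9.68% of all genes higher, 11.7% lower). The part of these cell types in the lower folding genes was not tested.

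After neonatal EB alone, ratios of the 34 genes to control lay mostly below 0 at every age, with 3 calls in all. At PND 100 Atf4, Atf6 and Pdia3 were lower, 3 of 34 (0.881% of all genes lower), and 0 were higher (1.81%), while all 34 ratios were below 0 with a median of -0.87 beside -0.06 for all genes. At PND 145 all 34 ratios were below 0 again, with a median of -0.44 beside -0.01, and 0 were called in either direction (0.376% of all genes lower, 0.194% higher). At PND 30, 31 of 34 were below 0, with a median of -0.55 beside -0.14, and 0 were called (0.0389% of all genes lower, 0.00864% higher). At an unadjusted limma p under 0.05 the counts of 34 were 10 at PND 30, 17 at PND 100 and 5 at PND 145, beside 11.9%, 22.3% and 15.2% of all genes, so that the count at PND 145 was near the share of all genes. Members varied together across arrays, with a median r of 0.77 between 19 of them and the mean of the chaperones and isomerases. The counts of ratios below 0 are therefore not 34 separate results.

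At PND 100 Pdia3 had the largest called ratio, -1.56 ± 0.39 (adjusted p = 0.0362), on 2.64, 2.23 and 2.05 in controls and 0.62, 1.00 and 0.62 in EB. Atf4 had -1.03 ± 0.23 (adjusted p = 0.0254). Trib3 had a larger ratio of -1.80 ± 0.51, on -2.39, -3.15 and -3.23 in controls and -4.72, -4.18 and -5.29 in EB, which did not overlap, and missed the threshold (adjusted p = 0.0505). Sdf2l1 (-1.34 ± 0.41) and Hspa5 (-0.91 ± 0.29) were not called.

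The EB arrays of PND 100 differed among themselves. EB replicate 1 lay near the controls for most members, and EB replicate 3 was the lowest, with Hspa5 at 5.15, 4.28 and 3.74 on the 3 arrays. Without EB replicate 1 the count was 16, and without EB replicate 3, control replicate 1 or control replicate 3 it was 0, as it was without both control arrays that stood apart. It was 1 without control replicate 2. The median ratio of -0.87 was -0.45 without EB replicate 3. Plasma cell and B cell markers averaged -5.83, -4.72 and -1.87 against -6.77, -6.84 and -6.12 in controls, with 6 of 19 higher and 0 lower, and were highest on EB replicate 3. Macrophage markers averaged -0.83, 0.66 and 0.65 against -1.85, -1.57 and -1.50, with 7 of 14 higher and 0 lower, and fibroblast and matrix markers 0.64, 0.10 and 1.56 against -0.72, -0.27 and -1.24, with 3 of 14 higher and 0 lower. Both means were above every control array on all 3 EB arrays, EB replicate 1 included. In this comparison 1.81% of all genes were called higher and 0.881% lower. Luminal markers averaged 1.97, 2.12 and 1.28 against 2.41, 2.41 and 2.46, with 0 of 15 called (2 at an unadjusted limma p under 0.05). Their part in the lower members was not tested.

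After EB at PND 100, 0.881% of all genes were called lower and 1.81% higher. Of the other Atf4 targets 9 of 40 were lower and 0 higher after EB at PND 100 (median -0.84), including the amino acid synthesis enzymes Psat1 (-1.90 ± 0.44) and Shmt2 (-0.86 ± 0.19) and the tRNA synthetases Aars1 (-0.97 ± 0.22) and Tars1 (-0.76 ± 0.17). Of the other translocation genes 4 of 34 were lower, among them Sec11a (-1.01 ± 0.16). At PND 145, where 0.376% of all genes were called lower, 2 of 40 Atf4 targets were lower after EB, the amino acid transporter Slc7a5 (-2.33 ± 0.47) and Aars1 (-1.01 ± 0.21).

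At PND 30 the ratios of Pdia4 and Atf6 had the lowest adjusted p. Pdia4 read 0.77, 0.89, 1.04 and 0.86 in controls and 0.16, -0.57, 0.01 and -0.48 in EB (-1.11 ± 0.25, adjusted p = 0.0791). Atf4 did not overlap either (-0.62 ± 0.20, adjusted p = 0.21). EB replicates 2 and 3 were the low arrays, and the luminal marker mean, 2.44, 1.58, 1.44 and 2.02 in EB against 2.18, 2.15, 2.25 and 2.13 in controls, was also lowest on them, with 0 of 15 markers called (1 at an unadjusted limma p under 0.05). The fibroblast and matrix marker mean was 1.01, 1.57, 1.65 and 1.10 in EB against 0.88, 0.62, 0.69 and 0.92 in controls, without overlap and highest on EB replicates 2 and 3, with 0 of 14 called (3 at that level). The skeletal muscle marker mean, -4.30, 1.36, 1.65 and -1.31 in EB against 0.58, -0.37, -2.25 and -3.27 in controls, was also highest on those 2 arrays, with 0 of 10 called (0 at that level). The part of these cells was not tested. The median of the 34 genes within slides was -0.08, -0.94, -0.16 and -1.02 on slides 1 to 4, beside -0.06, -0.23, -0.12 and -0.17 for all genes, so slides 1 and 3 gave little beyond the median of all genes. The difference of the EB effect between PND 100 and PND 30 called 0 of 34 (0.0216% of all genes higher), with 1 at an unadjusted limma p under 0.05 (8.41% of all genes), and that between PND 145 and PND 100 called 0 with 0 at that level.

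At PND 100, the first time point after the implants, EB+T+E was lower than control in 4 of 34 genes and higher in 0 (7.23% of all genes lower, 5.40% higher), with a median of -0.53 beside -0.09. The count of 4 was near the share of all genes called lower. The 4 were Ern1 (-1.82 ± 0.48, adjusted p = 0.0144), Atf6, Spcs2 (-1.05 ± 0.30, adjusted p = 0.0234) and Atf4. The 3 arrays spanned much of the range of the series: Hspa5 read 4.35, 4.97 and 5.70 and Dnajc3 -0.63, 1.41 and 3.52. Replicate 3 lay above every control in its median over the 34 genes. Replicate 1, the lowest for most members, also had a luminal marker mean of -0.94 against 2.41, 2.41 and 2.46 in controls. Macrophage markers were higher in 12 of 14 and fibroblast and matrix markers in 9 of 14, and 4 of 15 luminal markers were lower, and their part was not tested. Without replicate 1 Ern1 was at -0.83 and no longer called, and 1 of 34 genes was called. Without replicate 3 the count was 12. The median of -0.53 was -0.09 without replicate 1 and -0.93 without replicate 3. Without control replicate 1, control replicate 3 or both control arrays that stood apart the count was 2.

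Against T+E at PND 100, EB+T+E was lower in 3 of 34 genes (1.34% of all genes lower, 2.64% higher): Ern1 (-1.95 ± 0.48), Spcs2 (-1.15 ± 0.30) and Atf6 (-0.87 ± 0.23). That count was 0 without EB+T+E replicate 1 or T+E replicate 1, 1 without T+E replicate 2 and 18 without EB+T+E replicate 3. The median of -0.61, beside -0.10 for all genes, was -0.22 without EB+T+E replicate 1 and -1.01 without EB+T+E replicate 3. Against EB at PND 100, 0 of 34 were called (1.00% of all genes lower, 0.704% higher), with 4 at an unadjusted limma p under 0.05 (15.7% of all genes) and a median of 0.39 beside -0.05 for all genes. That median was 0.78 without EB replicate 1, 0.05 without EB replicate 3, 0.76 without EB+T+E replicate 1 and 0.01 without EB+T+E replicate 3. The interaction at PND 100 called 0, with 0 at that level.

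After T+E alone no member was called at either age. At PND 100, 0 of 34 were called (0.130% of all genes higher, 0.0518% lower), with 0 at an unadjusted limma p under 0.05, and the median was 0.11 beside -0.04 for all genes. At PND 145, 0 were called (0.289% higher, 0.0950% lower), with 0 at that level, and the median was -0.03 beside -0.04. With 1 array left out these medians ranged from -0.003 to 0.22 and from -0.18 to 0.05. The highest ratio at PND 100 was that of Edem1 (0.75 ± 0.44, adjusted p = 0.738), whose EB+T+E ratio at the same age was 0.25 ± 0.44. A missed threshold does not show equal levels: for Hspa5 the log2 ratio was 0.01 ± 0.29 at PND 100 and -0.05 ± 0.29 at PND 145.

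Between PND 30 and PND 100 Atf4 rose in the controls. It was higher at PND 100 (0.85 ± 0.22, adjusted p = 0.0279), the 1 of 34 called (0.777% of all genes higher, 1.48% lower), and 28 of 34 ratios were above 0 with a median of 0.32 beside 0.03. The call was lost without PND 30 control replicate 1, 2 or 4 or any single PND 100 control, where the count was 0. Xbp1 (0.95 ± 0.27), Ern1 (1.11 ± 0.45), Trib3 (1.18 ± 0.47) and Dnajb9 (1.23 ± 0.44) were not called, and the median of the 4 disulfide isomerases was -0.07. Of the other Atf4 targets 7 of 40 were higher and 0 lower, including Nupr1 (3.33 ± 0.56), Ppp1r15a (0.75 ± 0.16), Chac1 (1.09 ± 0.24) and Mthfd2 (1.49 ± 0.34). Of the other ER folding enzymes 3 of 36 were lower and 0 higher, the peroxiredoxin Prdx4 (-1.52 ± 0.24), the cyclophilin Ppic (-1.22 ± 0.27) and the isomerase Pdia2 (-2.98 ± 0.74). Fibroblast and matrix markers fell in 6 of 14 and rose in 0, among them Postn (-3.32 ± 0.54), Col3a1 (-2.66 ± 0.49), Col5a2 (-2.54 ± 0.49) and Sparc (-1.83 ± 0.30), and their mean went from 0.88, 0.62, 0.69 and 0.92 to -0.72, -0.27 and -1.24. Their part in the ratios of the 34 genes was not tested. In EB rats the same step called 0 of 34 (5.49% of all genes higher, 3.11% lower), with 4 at an unadjusted limma p under 0.05 (23.4% of all genes), and from PND 100 to PND 145 controls called 0, as did T+E (0.0216% of all genes higher and as many lower), each with 0 at that level.

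Secretory product levels were set beside the folding genes. Over the 33 arrays the mean of the 15 chaperones and isomerases had a Pearson r of 0.37 (Spearman rho 0.37) with the mean of 6 ventral prostate products (Scgb1d2, Scgb2a1, Sbp and others) and 0.45 (rho 0.45) with dorsolateral products (Pbsn, Msmb, Tgm4, kallikreins and others). Without the 2 arrays farthest from the median of the products, r was 0.19 and 0.40. Centred on the group means r was 0.43 and 0.58, and within slides 1 to 4 it was 0.226, 0.665, 0.684 and -0.115 for ventral and 0.480, 0.559, 0.690 and 0.153 for dorsolateral products. Seminal vesicle products had an r of 0.32, and of -0.22 after centring. These values describe arrays that share groups and slides, and carry no p.

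In EB+T+E at PND 145 ventral products averaged -1.03, -0.89 and 5.37 on the 3 arrays, while the 34 genes had medians of 1.38, 1.59 and 1.82. Dorsolateral products averaged -1.389, -1.085 and 1.645 there, against -0.789, 0.275 and 2.088 in controls. Replicate 3, with both product means in the control range, had Hspa5, Spcs2 and Ern1 below every control array of that age. Xbp1, Eif2ak3, Syvn1 and Sel1l lay within the control range on that array. This is 1 array, and the part of the products was not tested. In T+E at PND 145 ventral products averaged 2.36, 2.14 and 1.20 against 2.78, 4.38 and 5.69 in controls, with 0 of 34 genes called. In T+E at PND 100 they averaged 5.46, 5.72 and 5.54 against 5.06, 2.58 and 0.04 in controls, again with 0 of 34 called. Of the marker lists, luminal epithelium markers had an r of 0.68 (rho 0.75, and 0.71 centred on group means), fibroblast and matrix markers -0.68 (rho -0.71, centred -0.78) and plasma cell and B cell markers -0.68 (rho -0.42, centred -0.54). ER to Golgi transport genes had an r of 0.97, and 0.97 after centring.

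**Figure D4:**
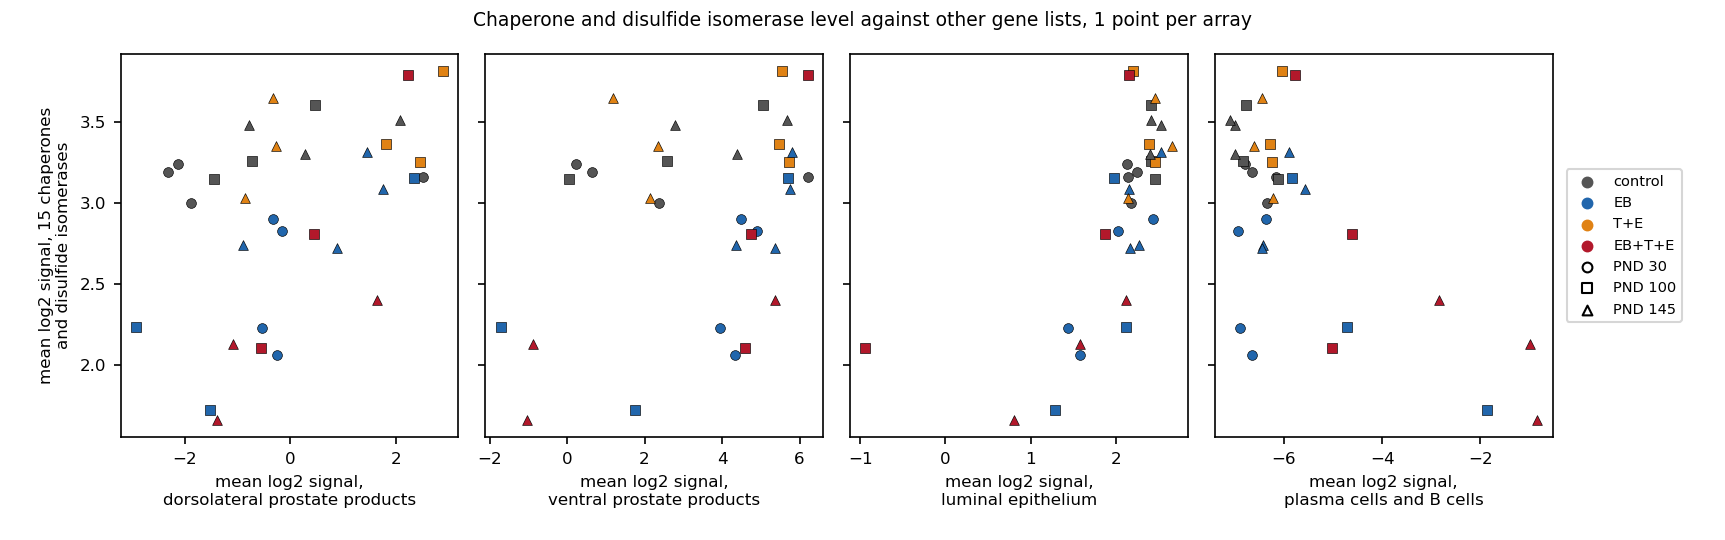
Mean log2 signal of the 15 chaperones and disulfide isomerases (vertical axis) against the mean log2 signal of 4 other gene lists (horizontal axes), 1 point per array, coloured by treatment and shaped by age. Pearson r over the 33 arrays is 0.45 for dorsolateral products, 0.37 for ventral products, 0.68 for luminal epithelium markers and -0.68 for plasma cell and B cell markers.

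Among themselves the members were alike to different degrees. The r of a gene to the mean of the 15 chaperones and isomerases was taken with the gene itself left out where it is among the 15. It was 0.98 for Hspa5 and 0.97 for Manf. Its median over the 19 other members was 0.77, beside 0.14 for all genes. Spcs3 and Derl3 were the closest of the 19 (0.93 each), Xbp1 (0.60) and Trib3 (0.61) were looser, and Ddit3 was at -0.20. Among the 10 genes outside the 34 with the highest r, at 0.95 to 0.97, were Lman2, Sec61g, Tmed2, Selenos, Ssr4, Surf4, Rpn2, Arl1 and Scamp1. Several of them belong to the same pathway, such as the channel subunit Sec61g, the TRAP subunit Ssr4, the oligosaccharyltransferase subunit Rpn2 and the cargo receptors Lman2 and Surf4.

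Members with and without an ERSE were set side by side after their values were known. In EB+T+E at PND 145 the 11 members with an ERSE or ERSE-II had a median log2 ratio of -1.24 with 8 lower, and the 16 members with a promoter and neither motif had -1.06 with 8 lower. The 7 members with no promoter entry had -1.43 with 7 lower. The 19 tested genes outside the 34 that held either motif had a median of -0.75 with 9 lower and 3 higher, among them the ER oxidase Ero1b (-2.01 ± 0.71) and the calcium-binding Nucb1 (-0.93 ± 0.32), both lower, and Calhm6 (5.74 ± 0.77), higher, named after their values were seen. These counts stand beside 20.6% of all genes called lower, and the difference between the sets was not tested.

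For 13 of the 34 genes the array held further probes, 18 in all. In EB+T+E against control at PND 145, 17 of the 18 had the sign of the brightest probe, with ratios from -2.49 to 0.51. The 18 include the dim second probe of Ern1, which was not well above background on every array. Further probes gave -1.85 for Pdia3, -1.60 for Manf, -1.25 and -1.60 for Atf6, and -2.49, -2.40 and -0.51 for Derl3, whose probes differ in size.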

How the data were processed

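Each of 33 RNA samples was hybridised to 1 Agilent rat array in 1 colour. The deposited files hold spot intensity values extracted with Feature Extraction 12.0.0.7, per the file headers, as background-corrected processed signals. Log2 of the deposited processed signal minus log2 of the 75th percentile of each array was computed here. Control and outlier spots were left out, and genes well above background on at least 3 arrays were kept with their brightest probe, which gave 23158 genes. A limma 3.58.1 model (R 4.3.3) of 10 group means over all arrays, with a trended robust prior, gave 19 comparisons, Benjamini-Hochberg adjusted within each over all genes at 0.05. The script was tested on simulated data. Members were matched by the gene name in the files, and the members and lists were chosen with earlier results of these data known. All 34 members are accounted for. Values on all arrays are given in the text for Hspa5, Xbp1, Herpud1, Atf4, Ddit3, Ern1, Atf6 (1 group as its mean and SD) and Spcs2, and on the arrays of the groups compared for the other members called against controls. Of each other list up to 4 called genes with the smallest p were named per comparison. Some genes that these rules name are not reported here. Alternatives were normexp correction, quantile scaling, other filters, slide and replicate blocks, the mean of all probes, the authors' deposited value table, array weights, only the groups compared, and each array left out. Leaving out both control arrays that stood apart, and gene-by-gene array weights, were added after seeing the data. Promoters came from RefSeq GRCr8. The number of arrays limits the precision.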

Additional observations from a re-analysis of the deposited data

Results flagged for a closer look

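Among 114 sets of 4 arrays examined, 5 held an array far from the other 3, and chance alone flags about 1 in 20 such sets. Hsp90b1 was lowest on control replicate 2 of PND 30, at 2.59 against 3.92 to 4.06 on the others, and highest on EB replicate 1 of PND 30, at 3.50 against 2.97 to 3.06. Dnajb9 was lowest on control replicate 1 of PND 30, at -0.55 against -0.23 to -0.19. Derl1 was lowest on EB replicate 2 of PND 145, at 1.60 against 2.05 on the other arrays. The mean of the dorsolateral prostate products was highest on control replicate 2 of PND 30, at 2.51 against -2.31 to -1.87.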

How the results depend on the processing

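No called log2 ratio of a member changed sign under any alternative: 867 kept the call and 191 lost it. With 1 array left out the median of the 34 genes ranged from -1.21 to -0.45 for EB, -0.93 to -0.09 for EB+T+E and 0.01 to 0.78 for EB+T+E against EB, all at PND 100, where arrays of 1 group spread widely. Counts of called members that moved by more than 1.5 times were these. With normexp correction the count was 2 for EB at PND 30 and 0 for EB at PND 100, with quantile scaling 1 for EB from PND 30 to PND 100, and with the mean of all probes 1 for EB+T+E over T+E at PND 100. With slide as a block it was 8 for EB at PND 100 and 2 for control PND 100 against PND 30. With only the groups compared it was 0 for EB, for EB+T+E and for EB+T+E over T+E at PND 100, and 9 for control PND 100 against PND 30. Without both control arrays that stood apart it was 0 for EB and 2 for EB+T+E at PND 100, and 0 for control PND 100 against PND 30.

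The replicate numbers did not pair the samples (correlations of deviations from -0.45 to 0.46), and with a replicate block the count for control PND 100 against PND 30 was 2.

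Array weights gave the largest change. The planned limma default did not converge on these data, and the gene-by-gene method was added after the counts of the default had been seen, so both are given, default first. The counts were 25 and 23 for EB at PND 30 (with 23.2% and 21.5% of all genes called), 27 and 20 for EB at PND 100 (23.4%, 15.2%), 14 and 7 for EB at PND 145 (13.5%, 8.36%), 1 and 1 for T+E at PND 100 (9.29%, 8.50%), 10 and 8 for EB+T+E at PND 100 (27.1%, 16.1%), 21 and 22 for EB+T+E against EB at PND 145 (50.5%, 44.6%), 11 and 13 for control PND 100 against PND 30 (19.9%, 20.7%), 9 and 4 for EB from PND 30 to PND 100 (26.8%, 16.5%), and 12 and 8 for the interaction at PND 145 (25.1%, 16.9%). The default alone moved EB+T+E over T+E at PND 100 to 9 (22.3%), EB+T+E against EB at PND 100 to 1 (8.97%) and the interaction at PND 100 to 1 (4.84%). Out of 34, several of these counts are near the share of all genes. The cause was not tested.

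With 1 array left out the counts ranged from 0 to 2 for EB at PND 30 (2 without EB replicate 1), 0 to 16 for EB at PND 100, 1 to 12 for EB+T+E at PND 100, 13 to 25 for EB+T+E at PND 145, 0 to 18 and 10 to 22 for EB+T+E over T+E at the adult ages, 0 to 1 (1 without EB+T+E replicate 3) and 2 to 12 for EB+T+E against EB at these ages, and 0 to 1 for control PND 100 against PND 30. For the correlation with chaperones, r was 0.665, 0.684 and -0.115 for ventral products within slides 2, 3 and 4, 0.690 for dorsolateral products within slide 3, and for seminal vesicle products 0.651 within slide 1 and -0.22 centred on group means. With 3 or 4 arrays a group, a ratio within the spread of the arrays could not be told from 0.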
